A study of Mus musculus with 10 samples.

Results

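Of 8294 p63 peaks on mouse chromosomes 1 to 19, 1255 (15.1%, Wilson 95% interval 14.4 to 15.9%) stood alone, with the midpoint over 150 kb from the midpoint of every other peak on the chromosome. The deposited list held 8451 peaks in all, with chromosomes X and Y. These isolated peaks were selected on their distance to other peaks alone, so that distance is given below as a description, without a test. Each peak is a stretch of the genome (build mm10) where DNA bound to p63 was enriched. The intervals printed with shares and medians cover counting error only.

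The peaks came from chromatin immunoprecipitation and sequencing (ChIP-seq) with the 4A4 antibody to p63 in a pair of similar mouse keratinocyte lines, MK1 and MK2, with 1 p63 library each. No treatment or genotype is named for either line. Histone mark and input libraries of the same lines were not analysed here. The list is a single set made from both p63 libraries with an irreproducible discovery rate step, which keeps peaks ranked consistently high in both. It therefore has no replicate value for a peak, and no test between samples is possible. It gives 3 columns, the chromosome, start and end, and depth is unknown. Cell identity could not be checked against expression, and the lists of keratinocyte and other cell type genes below describe positions only.

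p63 is a transcription factor of the p53 family. It is needed to form and maintain stratified epithelia such as the epidermis, and in keratinocytes it acts at promoters and, more often, at enhancers that can lie far from the gene they control. Its binding site is built from a pair of decamers, each with a C and a G at fixed places, most often spelled CATG with its neighbours. Enhancers of highly expressed lineage genes tend to come in groups, and a peak with no neighbour is the opposite arrangement.

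Sequence could be read at a small subset of the isolated peaks, those that covered part of an annotated promoter (250 bases before to 50 after a gene start, RefSeq, GRCm38.p6). The stretches below are the covered bases upstream of the start, written 5′ to 3′ on the gene's strand, for 5 genes whose stretch matched the p53 family consensus of 20 bases at 16 or more positions. They were picked after the values were seen, Pfdn6 and Prl8a1 for CATG in both decamers. Other matches before a start are not printed. Among protein-coding genes these were Rps19 with 18 positions, as many as Stox2, Tut4 with 17, and Gabpb1, Llgl1 and Plcxd1 with 16. Among long noncoding RNA genes they were Gm29906 with 18, Gm14102 with 17 and Gm33078 with 16. Capitals mark the best match. They are shown because the consensus is the sequence the p53 family is known to bind, and each of these peaks is the only one within 150 kb.
Stox2: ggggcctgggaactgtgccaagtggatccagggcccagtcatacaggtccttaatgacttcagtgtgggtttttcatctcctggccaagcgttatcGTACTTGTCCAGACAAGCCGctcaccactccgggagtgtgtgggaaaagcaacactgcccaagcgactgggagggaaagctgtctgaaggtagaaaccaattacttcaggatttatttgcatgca
Trim32: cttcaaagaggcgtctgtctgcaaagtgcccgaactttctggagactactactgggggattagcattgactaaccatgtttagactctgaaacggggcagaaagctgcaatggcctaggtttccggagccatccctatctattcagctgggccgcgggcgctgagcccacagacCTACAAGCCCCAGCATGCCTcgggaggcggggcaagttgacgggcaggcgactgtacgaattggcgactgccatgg
Cep128: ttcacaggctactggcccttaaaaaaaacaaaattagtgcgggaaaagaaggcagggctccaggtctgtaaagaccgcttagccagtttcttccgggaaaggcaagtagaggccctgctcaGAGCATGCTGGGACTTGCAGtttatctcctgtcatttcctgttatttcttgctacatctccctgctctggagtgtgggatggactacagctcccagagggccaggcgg
Pfdn6: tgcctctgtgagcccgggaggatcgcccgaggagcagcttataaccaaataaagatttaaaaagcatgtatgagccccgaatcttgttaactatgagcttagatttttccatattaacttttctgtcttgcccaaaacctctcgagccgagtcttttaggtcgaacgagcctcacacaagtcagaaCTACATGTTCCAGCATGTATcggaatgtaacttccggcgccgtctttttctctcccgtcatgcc
Prl8a1: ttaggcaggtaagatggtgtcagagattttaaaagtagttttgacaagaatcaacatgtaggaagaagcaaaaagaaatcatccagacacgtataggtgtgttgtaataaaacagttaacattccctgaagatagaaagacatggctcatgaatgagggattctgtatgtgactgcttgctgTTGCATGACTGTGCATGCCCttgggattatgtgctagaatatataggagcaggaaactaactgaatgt

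The Stox2 stretch (chr8:47352378-47352598, minus strand) matched at 18 of 20 positions, which 0.331% of all 31396 promoter windows of the table reached or passed. Of the windows touched by an isolated peak 6.82% did, and of those touched by another peak 10.6%. Stox2 encodes a storkhead-box protein, and its peak was 446 bp wide with the next peak 176.3 kb away. The Trim32 stretch (chr4:65604736-65604985, plus strand) and the Cep128 stretch (chr12:91384431-91384659, minus strand) matched at 17 positions. This was reached by 1.4% of all windows, 18.2% of those at isolated peaks and 23.9% of those at other peaks. Trim32 is a ubiquitin ligase gene that lies within Astn2, and Cep128 encodes a centriole protein. The Pfdn6 stretch (chr17:33940344-33940593, minus strand) and the Prl8a1 stretch (chr13:27582172-27582421, minus strand) matched at 16 positions, reached by 4.82%, and both held CATG in each decamer, 6 bases apart. Pfdn6 encodes a subunit of the prefoldin chaperone and Prl8a1 a member of the prolactin family. The Pfdn6 match ended 45 bases and the Prl8a1 match 49 bases before the start.

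In all, 37 isolated peaks (3.08% of the 1203 on chromosomes with promoter windows analysed here) overlapped a promoter window, against 263 other peaks (3.86% of 6806). The windows belonged to 25 protein-coding and 13 long noncoding RNA genes. Among the 44 windows touched by an isolated peak, 17 (38.6%, 25.7 to 53.4%) had at least 16 of 20 positions with the C and G of each decamer in place. The share was 37.9% (32.6 to 43.5%) of 301 windows touched by other peaks and 4.82% of all windows. Without requiring the C and G, which was the first scoring tried, the shares were 70.5%, 60.1% and 30.2%. The requirement was chosen after those values were seen. With the C and G in place, 17 or more positions were reached by 18.2% of windows at isolated peaks, 23.9% at other peaks and 1.4% of all. For 18 or more the shares were 6.82%, 10.6% and 0.331%, and for 19 or more 0, 3.32% and 0.0701%. No window touched by an isolated peak held the full consensus at 20 of 20, against 2 touched by other peaks and 3 of all windows. By both scorings the windows at isolated and at other peaks held matches of 16 or more positions at a higher share than promoters in general. Under the stricter scoring their intervals at 16 or more overlapped each other.

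The simpler words were counted on both strands. A pair of CATG words 6 bases apart was in 3 windows at isolated peaks (6.82%), in 1.99% of windows at other peaks and in 0.688% of all. These 3 windows were overlapping windows of Pfdn6, which hold the same pair, and a window of Prl8a1. The looser pair of CNNG words 6 bases apart, which every such match also meets, was in 88.6%, 88.7% and 70.3%. TGANTCA, the word of the AP-1 factors that are abundant in keratinocytes, was in 13.6%, 17.9% and 7.84%. A match is a feature of the letters and not a measured site, and windows that share a gene or a peak are not independent.

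A search for microRNA genes, added after the peaks had been described, found 3 isolated peaks (0.239%) with the midpoint within 1 kb of a hairpin, against 10 other peaks (0.142%). A peak of 268 bp inside Mcm7, a subunit gene of the DNA replication helicase, overlapped the Mir25 hairpin. Its midpoint lay 67 bp from that hairpin, 269 bp from Mir93 and 483 bp from Mir106b. No other p63 peak lay within 294.1 kb of it. The mature sequences of this cluster are shown with the seed, bases 2 to 8, in capitals, because 3 hairpins lay within 1 kb of this single peak.
miR-25-3p: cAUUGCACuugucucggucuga
miR-93-5p: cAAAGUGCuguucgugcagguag
miR-106b-5p: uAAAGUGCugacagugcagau
The seed AAAGUGC is common to miR-93-5p and miR-106b-5p, while miR-25-3p has AUUGCAC. The other hairpins were Mir3569, 225 bp from the midpoint of a peak of 182 bp next to Zbtb32, and Mir139, 829 bp from the midpoint of a peak of 272 bp inside Pde2a.

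The spacing of the peaks had no gap at 150 kb. The median isolated peak had its nearest neighbour 278.9 kb away (quartiles 196.8 and 477.8 kb), against 20.1 kb for other peaks. Of the 1255, 575 were over 300 kb, 287 (22.9%) over 500 kb and 83 over 1 Mb from the next peak. Counting both sides, the stretch without another peak around an isolated peak had a median of 1076.4 kb, over the 1241 peaks with a neighbour on each side. The 3 members closest to the limit had distances of 150.6, 150.9 and 150.9 kb, and the 3 peaks just outside had 149.9, 149.8 and 149.7 kb. No step in distance separates the members at the limit from the peaks just outside it.

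**Figure D1:**
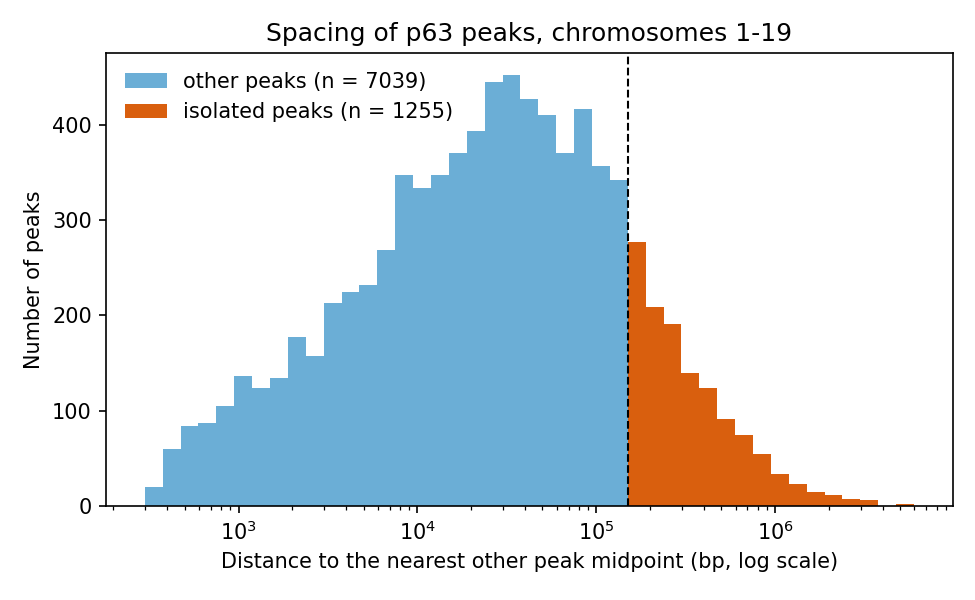
Number of p63 peaks (vertical axis) by distance to the nearest other peak midpoint (horizontal axis, bp, log scale) on chromosomes 1 to 19. The dashed line is the 150 kb limit, the 7039 other peaks lie to its left and the 1255 isolated peaks to its right, and the counts run on across the line without a break.

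The most isolated peak was chr12:64115118-64115321, 5040.9 kb from the next peak and 356.1 kb from Fscb. A peak inside Megf9 had no other within 4925.5 kb. Gpc5, a glypican gene, had a peak 86.9 kb from its boundary with the next peak 3718.6 kb away. Slitrk6, Cntnap5a, Pcdh9, Lrp1b and Csmd3, which encode neuronal membrane or adhesion proteins, followed with 3683.0, 3392.0, 3353.8, 3351.4 and 3167.6 kb. Sybu and Stxbp6, both tied to vesicle transport, closed the 10 with 2957.2 and 2924.6 kb. Widths in this group ran from 204 bp at Fscb to 360 bp at Csmd3.

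The gaps around isolated peaks are shared with the next peak, so runs of isolated peaks follow in part from the selection and are given as a description. A total of 879 isolated peaks stood in 308 runs of at least 2 isolated peaks without another peak between, and the longest run had 9. That run spanned 4071.7 kb of chromosome 7 and its nearest genes included Nr2f2, a nuclear receptor gene, Mctp2, Rgma, Chd2 and Slco3a1. Around Klf4, the gene of a factor needed for the epidermal barrier, 4 isolated peaks lay on chromosome 4 at spacings of 150.9 to 186.0 kb. They began at 55206069, 55357017, 55535711 and 55721806. The first was nearest to Zfp462, at 122.7 kb, and the second lay inside Rad23b. Only the third and the last had Klf4 as nearest gene, and the third lay 3.402 kb from its boundary. On chromosome 13 a run of 5 covered 1732.6 kb around Irx1, a homeobox gene. Of these, 3 had Irx1 as nearest gene, at 146.3, 234.7 and 309.1 kb.

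The share of isolated peaks differed among chromosomes. It was highest on chromosome 13, with 78 of 325 peaks (24.0%, 19.7 to 28.9%), and lowest on chromosome 16, with 31 of 345 (8.99%, 6.40 to 12.5%). The number of isolated peaks per Mb ranged from 0.328 on chromosome 16 to 0.69 on chromosome 11. Chromosome 11 had the most peaks per Mb (5.44) but an isolated share of 12.7%. The intervals of chromosomes 13 and 16 do not overlap each other or the interval of the whole set.

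Width, which the selection did not use, was smaller at isolated peaks. The median was 278 bp (272 to 285 bp, quartiles 228 and 355.5 bp, range 140 to 1309 bp), against 311 bp (308 to 314 bp) for other peaks. The medians went down with distance: 321 bp for peaks with a neighbour up to 10 kb away, 312 bp for 10 to 50 kb and 294 bp for 50 to 150 kb. Within the isolated set they were 286.5 bp from 150 to 250 kb, 280 bp from 250 to 500 kb and 269 bp over 500 kb. The intervals of the nearest and farthest of these classes, 275 to 297 and 253 to 277 bp, overlapped slightly.
The tails moved as well. Peaks over 500 bp made up 6.61% of isolated peaks and 11.5% of others, and peaks under 200 bp made up 9.88% and 6.88%. A peak's width depends on how the reads at its edges were called, and its height was not in the file, so the part of signal strength was not tested. Peaks close to each other can also be joined by a peak caller.

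**Figure D2:**
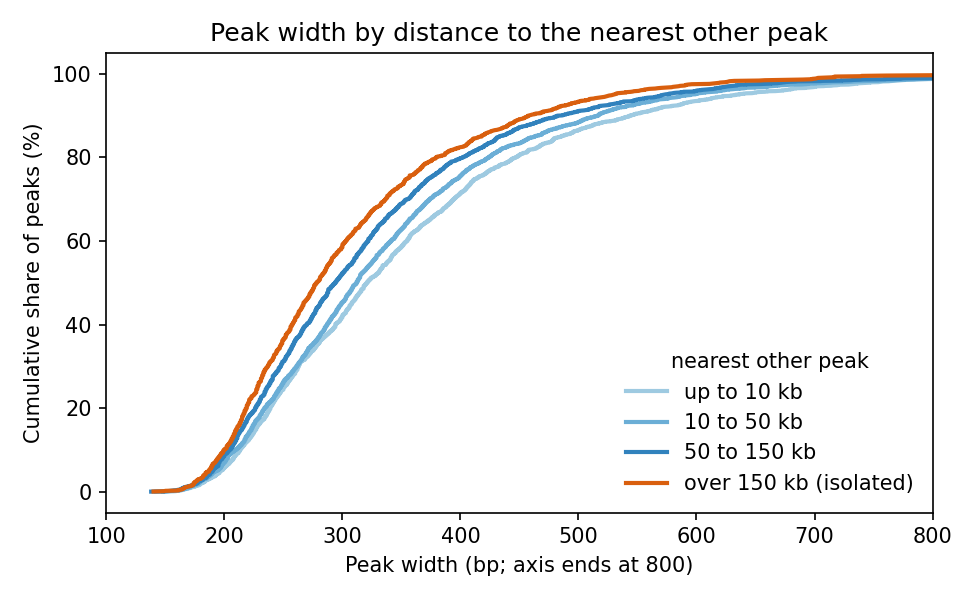
Cumulative share of peaks (vertical axis, %) by peak width (horizontal axis, bp, ending at 800) for 4 classes of distance to the nearest other peak. The curve of isolated peaks lies to the left of the others, with medians of 278 bp for isolated peaks and 321 bp for peaks with a neighbour within 10 kb.

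A basal keratinocyte gene outside the lists below, Fermt1, held a very wide isolated peak. The widest of all, chr14:19417706-19419014 with 1309 bp, lay 115.3 kb from the predicted gene Gm2244. No mask of high-signal regions was used, and without this peak the median was 278 bp and the maximum 1188 bp. That maximum was chr2:132944727-132945914, with its midpoint 0.715 kb inside the upper boundary of Fermt1, the gene of kindlin-1, which ties integrins to the cytoskeleton in basal keratinocytes. It was the only peak in the gene, 256.5 kb from the next, and it also covered the promoter window of the long noncoding RNA gene Gm14102. Cdc42bpg, a kinase gene, followed with 1041 bp, then Adgrb1 with 825 bp, Agap1 with 801 bp, Nrip1, a nuclear receptor corepressor gene, with 761 bp and Gabpb1 with 740 bp. The narrowest, picked after the values were seen, were 140 bp in Ncoa2, 149 bp in Sorbs2 and 150 bp at a distance of 606.4 kb from Cdh10.

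Isolated peaks lay farther from protein-coding genes than other peaks did. Of the 1255, 370 (29.5%, 27 to 32.1%) were outside genes and over 25 kb from any boundary, against 1422 of 7039 others (20.2%, 19.3 to 21.2%). A boundary is either end of a gene. Between 1 and 25 kb outside lay 213 isolated peaks (17%, 15 to 19.1%), against 22.4% of others. Inside a gene and over 1 kb from its ends were 581 (46.3%, 43.6 to 49.1%), against 49.6%. Within 1 kb of a boundary were 91 (7.25%, 5.94 to 8.82%), against 7.83%, and the intervals overlapped here and inside genes.

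**Figure D3:**
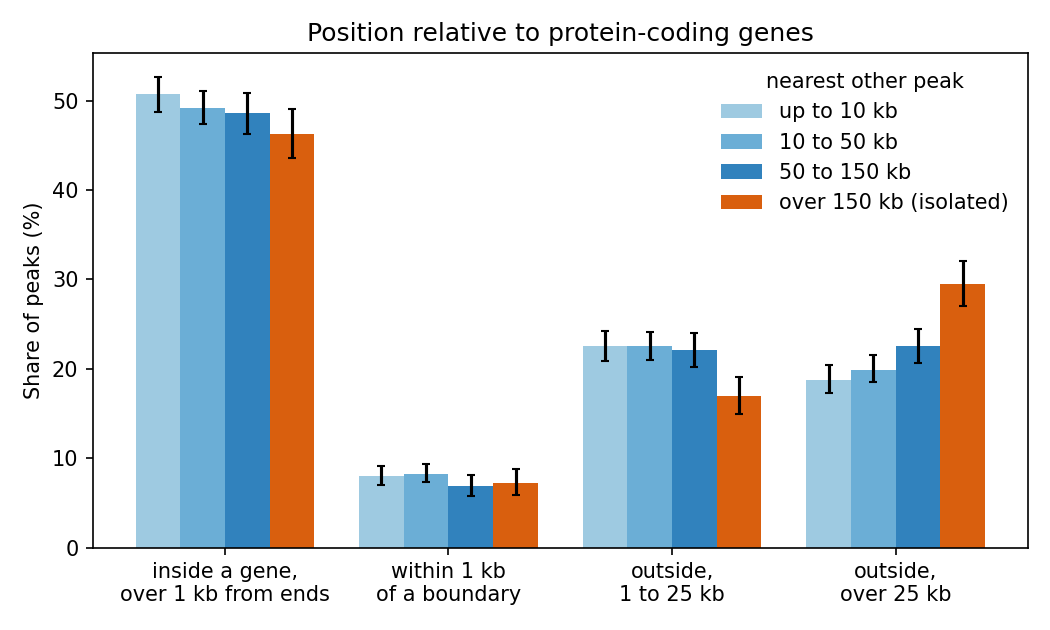
Share of peaks (vertical axis, %) in 4 classes of position relative to protein-coding genes, for 4 classes of distance to the nearest other peak, with Wilson 95% intervals as error bars. Isolated peaks had the highest share over 25 kb outside genes, 29.5%, against 18.8% for peaks with a neighbour within 10 kb.

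The long tail carried the difference. The median distance to the nearest boundary was 24452 bp (20780 to 27416 bp) for isolated peaks and 16665 bp (15819 to 17581 bp) for others. Over 100 kb from the nearest boundary were 286 isolated peaks (22.8%) and 11.3% of others, and over 500 kb were 38 (3.03%) and 39 (0.554%). The farthest were 1853.0 kb from Olfm4, 1751.7 kb from Pcdh20, 1678.8 kb from Pcdh10, 1444.1 kb from Rpia and 1321.6 kb from Efna5, a guidance cue gene.
Gene starts could be told from ends for 16457 of the 20560 protein-coding genes, those with a start in the promoter table, none on chromosome 18. The other genes do not enter these shares, which are therefore incomplete. The midpoint was within 1 kb of a protein-coding start for 69 of 1203 isolated peaks (5.74%, 4.56 to 7.2%) and for 5.23% of others, and within 1 kb of the other end only for 1.5% and 2.20%. For starts of long noncoding RNA genes the shares were 2.49% and 2.73%. Outside protein-coding genes, 92 of 618 isolated peaks (14.9%) lay in a long noncoding RNA gene, against 19.6% of others.

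Distance from genes and isolation went together with how many genes a region holds. Isolated peaks had a median of 7 protein-coding genes with a boundary within 500 kb (quartiles 4 and 13), against 11 for others (6 and 20), and 4 against 6 within 250 kb. Peaks were therefore sorted into 3 classes of gene density. In the low class, with 0 to 7 genes, 642 of 2817 peaks (22.8%) were isolated, in the middle class, with 8 to 16 genes, 389 of 2897 (13.4%), and in the high class, with 17 to 70 genes, 224 of 2580 (8.68%).
Within these classes the share over 25 kb from a gene differed less than over all peaks, while the longer distances in the low class did not draw together. Over 25 kb from a gene were 43.8% (40.0 to 47.6%) of isolated and 39.1% (37.1 to 41.1%) of other peaks in the low class, 19.3% and 18% in the middle class and 6.25% and 5.14% in the high class, with intervals that overlapped in each. In the low class the median distance to a boundary was 65281 bp (57541 to 77305 bp) for isolated and 48952 bp (45200 to 52475 bp) for other peaks, and 40.7% and 29.2% were over 100 kb from a boundary. The classes count boundaries within 500 kb, so they are built in part from these same distances. Density also differed inside the low class, with medians of 4 and 5 genes, and 5.92% and 1.79% of peaks without any. What remains after sorting can therefore still reflect density. The medians of the middle class were 14785 and 17292 bp and those of the high class 5721.5 and 6771 bp, with overlapping intervals in both. The difference in width stayed, with medians of 272.5 and 310 bp, 282 and 309 bp, and 289 and 312 bp, and intervals that did not overlap in any class.

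**Figure D4:**
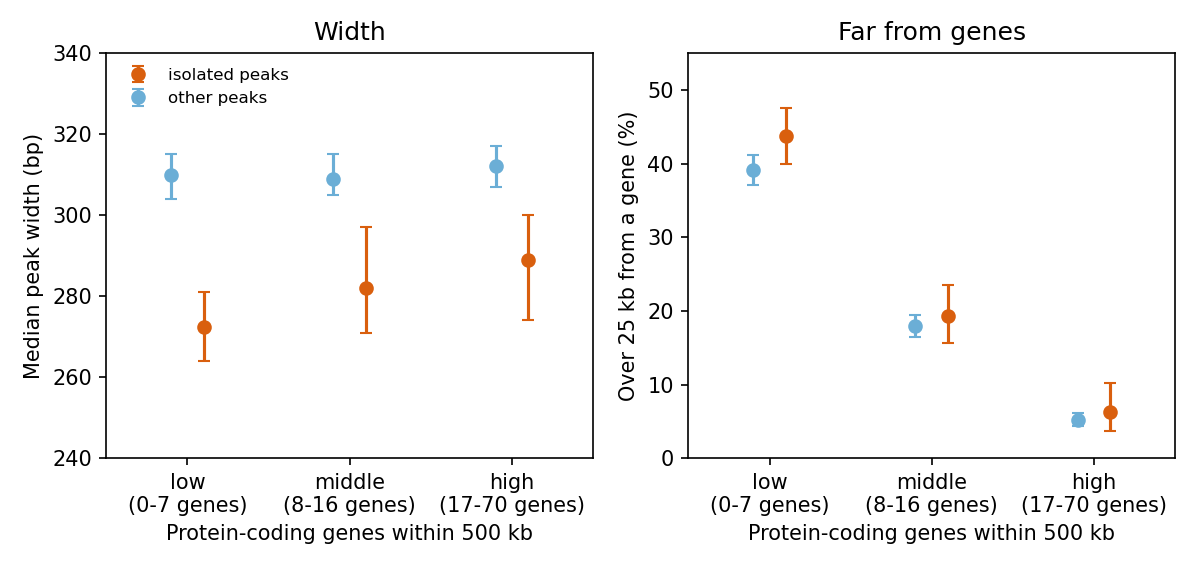
Median width (left, bp, axis from 240 to 340) and share over 25 kb from a protein-coding gene (right, %) of isolated and other peaks in 3 classes of gene density (horizontal axis, protein-coding genes within 500 kb), with 95% intervals. Isolated peaks were narrower in each class, by medians of 272.5 against 310 bp in the low class, while the right panel's intervals overlap.

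The shares at gene ends differed most in gene-dense regions. Within 1 kb of a boundary lay 44 of 224 isolated peaks (19.6%, 15 to 25.3%) in the high class and 13.8% (12.5 to 15.2%) of others. Outside chromosome 18, within 1 kb of a start in the promoter table, the shares were 15% (10.9 to 20.3%) and 8.26% (7.21 to 9.45%), with intervals that did not overlap. In the middle class they were 5.35% and 5.11% and in the low class 2.63% (1.62 to 4.22%) and 1.98% (1.46 to 2.67%). For boundaries the middle class had 6.43% and 6.66% and the low class 3.43% and 2.71%, with overlapping intervals. The classes were not set against each other by a test.

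The isolated peaks closest to a boundary sat at genes of many functions. A peak 0.016 kb from Traf3ip2, an adaptor of interleukin-17 signalling in skin, was 199 bp wide and 346.2 kb from the next peak. Zbtb32 followed at 0.018 kb, Qrfp, a neuropeptide gene, at 0.022 kb, Apobec1, a cytidine deaminase gene, at 0.025 kb and Hrct1 at 0.027 kb. Dbh, of noradrenaline synthesis, stood at 0.047 kb, Ggt5 at 0.050 kb, and Hpgds, a prostaglandin synthase gene, at 0.073 kb with no other peak within 1990.1 kb. Cep128, Dglucy, Gm46608, Lrrc20, Gmps, Trim32 and Pfdn6 completed the 15, at 0.090 to 0.119 kb.

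Over all peaks, genes that hosted an isolated peak were longer than those that hosted other peaks, but not in each class of gene density. A midpoint inside a protein-coding gene was found for 637 isolated peaks (50.8%) in 621 genes, and 582 of them (91.4%) were the only peak in the host. The selection sets most of this, since a host of up to 150 kb cannot hold a second peak beside an isolated one, and 233 of the 637 lay in longer hosts. The host's length had a median of 95.8 kb, against 77.5 kb for hosts of other peaks, counted per peak. In the low density class the medians were 220.4 and 188.6 kb. The order was the other way in the middle class, with 86.4 and 90.4 kb, and in the high class, with 34.9 and 37.5 kb. Hosts over 500 kb took 66 isolated peaks (10.4% of hosted ones) and 4.01% of hosted others. The longest were Dlg2, a synaptic scaffold gene of 1973.1 kb, Nrxn3 with 1612.2 kb, Fhit with 1612.0 kb and 2 isolated peaks, Pcdh15 with 1553.6 kb and Dpp10 with 1513.7 kb. A long gene has more room for a lone peak, and how much of the difference this accounts for was not tested.

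For the kinds of genes, each peak was given a single nearest gene, the host or else the gene with the closest boundary. Isolated peaks had 1179 distinct nearest genes, 5.73% of the 20560 protein-coding genes of these chromosomes. Other peaks had 3539 (17.2%), and 117 genes had both kinds. Nearest genes of isolated peaks had a median length of 64.5 kb, against 36.3 kb for those of other peaks and 17.6 kb for all genes. Only Zfp608, Exoc4 and Irx1 were nearest to 3 or more isolated peaks, with 4, 3 and 3. Zfp608 encodes a zinc finger protein and Exoc4 a subunit of the exocyst. The Exoc4 peaks stood 0.141 kb outside the lower boundary, within the gene, and 2.752 kb outside the upper boundary. A gene with several peaks close together cannot have an isolated one among them, so the counts below are set in part by how many peaks a gene has.

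None of the listed basal keratinocyte genes was nearest to an isolated peak. Of 20 basal keratinocyte genes, 16 were nearest to other peaks and 0 to an isolated one, where all genes had 17.2% and 5.73%, and 0 of their 63 peaks were isolated, which allows a share of up to 4.76%. Col17a1 and Dst, both of the hemidesmosome, had 8 and 9 peaks, Lama3, a laminin chain gene, had 7, and Krt14 had 1. Of 20 desmosome and junction genes, 15 had other peaks and 0 an isolated one, with 0 of 62 peaks (up to 4.84%). Among these Nectin1 had 15 peaks, Pkp1 8 and Perp, a desmosome gene and p63 target, 6. All 33 peaks nearest to keratin genes had a neighbour within 150 kb (up to 9.09%). The low density class held 0 of these 33 peaks, 6 of the 63 basal and 13 of the 62 junction peaks, against 2817 of all 8294. In the high density class 8.68% of all peaks were isolated. That share is within the keratin limit and above those of the basal and junction lists. These limits count each peak as independent. Peaks within 150 kb of each other are all not isolated, so the limits are too narrow, and the part of gene density was not tested.
Of 30 epidermal transcription factor genes, 5 (16.7%, against 5.73% of all genes) were nearest to an isolated peak, which made 6 of their 65 peaks (9.23%, 4.30 to 18.7%, an interval that includes the 15.1% of all peaks). Barx2 had 1 inside the gene, 9.901 kb from a boundary, and Prdm1, a transcriptional repressor gene, had 1 at 36.8 kb, and neither had another peak. Klf4 had 2 of 4, at 3.402 and 189.4 kb, Sox9, of hair follicle stem cells, 1 of 4 at 308.8 kb, and Tfap2a 1 of 3 at 195.3 kb. Of 34 signalling genes, 3 (8.82%) had an isolated peak (3 of 90 peaks, 3.33%, 1.14 to 9.35%): Fgfr3 at 8.897 kb, Tgfbr2 inside the gene and Bmp4 at 121.6 kb.
Terminal differentiation and the p53 response had 1 gene each. Casp14, a protease of the cornified layer, had its only peak at 0.172 kb inside the boundary, 381 bp wide and 297.0 kb from the next, out of 21 peaks nearest to 25 such genes. Trp53inp1, a p53 target, had its only peak at 0.206 kb, out of 51 peaks (1.96%, 0.347 to 10.3%) nearest to 27 genes of the response. Joined, the 4 epidermal lists had 6 of 95 genes (6.32%, against 5.73% of all genes) nearest to an isolated peak, and 59 (62.1%, against 17.2%) nearest to another peak. By peaks, 7 of 211 were isolated (3.32%, 1.62 to 6.69%), against 15.1% of all peaks, and in the low density class 6 of 64 (9.38%) against 22.8%.

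Cadherin and synaptic adhesion genes had higher shares than all peaks together. The cadherin family was taken by symbol, Cdh with a number. Of its 23 genes, 9 (39.1%) were nearest to an isolated peak and 4 to another peak, and 10 of their 24 peaks were isolated (41.7%, 24.5 to 61.2%). The 9 genes became 4 when a nearest gene counted only within 100 kb, 4 with peaks at least as wide as the median alone and 5 with all annotated genes. Cdh6, Cdh7, Cdh10, Cdh11, Cdh12, Cdh18 and Cdh19 had 1 peak each, which was isolated, and Cdh2, neural cadherin, had 2. Of these, Cdh12 was the closest to its peak, at 12.3 kb, and Cdh10 the farthest, at 606.4 kb. Cdh13 had 1 isolated peak of 5, within the gene. Cdh1 and Cdh3, the epithelial cadherins of the epidermis, had 1 and 5 peaks and no isolated one. The nearest gene of a remote peak is a label of place, and no link to its expression was measured.
Of 50 synaptic adhesion genes, 13 (26.0%) were nearest to an isolated peak, with 15 of 42 peaks (35.7%, 23.0 to 50.8%). The 13 genes became 7 within 100 kb only and 7 with all annotated genes. The contactins gave 7 of these: Cntn1, Cntn2, Cntn3, Cntn4 and Cntn6 had 1 peak each and Cntn5 had 2, all isolated. Nrxn3, a neurexin gene of the presynaptic side, had 1, within the gene. Cadm1, Flrt2, Ncam1 and Dscaml1, by contrast, had 9, 5, 5 and 5 peaks and no isolated one. Protocadherins had 5 of 13 peaks isolated (38.5%, 17.7 to 64.5%), at Pcdh7, Pcdh9, Pcdh10, Pcdh15 and Pcdh20. By genes this was 5 of 67 (7.46%), near the 5.73% of all genes.
Joined after the values were seen, the cadherin, protocadherin and synaptic adhesion families had 30 of 79 peaks isolated (38.0%, 28.1 to 49.0%). In the low density class, which held 64 of these peaks, 29 (45.3%) were isolated, against 22.8% of all peaks there. The genes are long, with a median of 115.3 kb against 17.6 kb for all, and the part of length in the share was not tested.

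**Figure D5:**
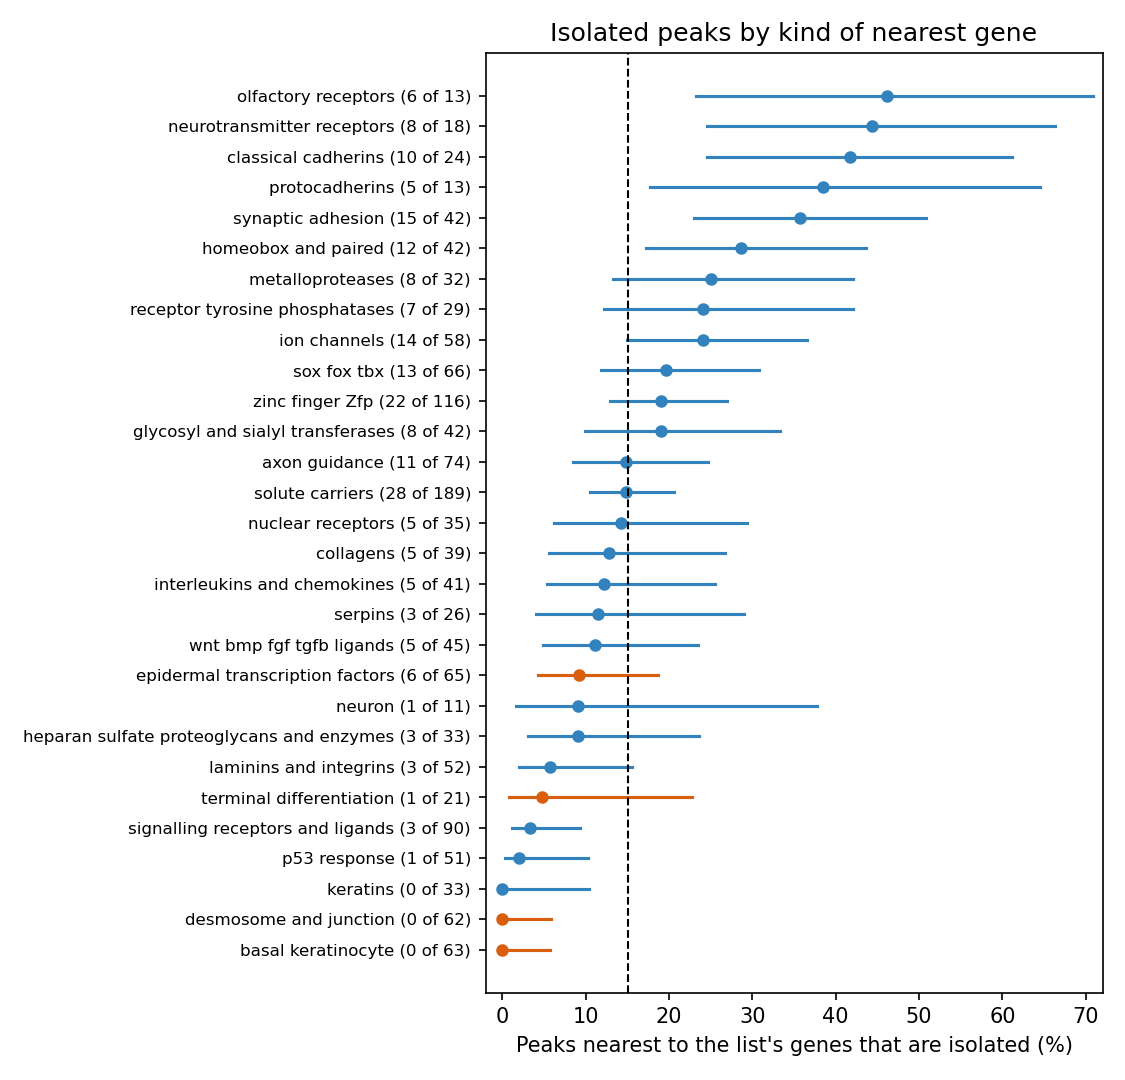
Share of peaks that were isolated (horizontal axis, %) for lists and families of nearest genes with at least 10 peaks, a limit set after the values were seen. Points are shares, lines Wilson 95% intervals, orange the epidermal lists, and the dashed line is the 15.1% of all peaks. Cadherin, protocadherin and synaptic families lie to its right at 35.7 to 41.7% and basal keratinocyte and junction genes at 0.

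The highest shares belonged to 2 families with few peaks. Neurotransmitter receptor genes had 8 of 18 peaks isolated (44.4%, 24.6 to 66.3%), among them Chrm3, Gabrb2, Glrb, Grik2, Grik4, Grm4 and Htr1b, each with a single peak. By genes, 8 of 92 (8.7%) were nearest to an isolated peak, against 5.73% of all genes. Olfactory receptor genes had 6 of 13 (46.2%, 23.2 to 70.9%), but only 6 of 1103 such genes (0.544%) were nearest to an isolated peak and as many to another. Homeobox and paired genes had 12 of 42 peaks isolated (28.6%, 17.2 to 43.6%), the Irx genes among them, and 10 of 132 genes (7.58%). Sox, Fox and Tbx genes had 13 of 66 (19.7%), ion channels 14 of 58 (24.1%), axon guidance genes 11 of 74 (14.9%) and solute carriers 28 of 189 (14.8%). The intervals of these last 4 reached the 15.1% of all peaks.
Markers of other cell types were nearest to peaks at shares near those of all genes. Of 91 such genes, 4 (4.4%, against 5.73%) were nearest to an isolated peak and 14 (15.4%, against 17.2%) to another peak. Of the 15 neuron genes, 6 (40%) were nearest to another peak. Isolated peaks were nearest to Map2 of neurons, Ryr2 of heart muscle, Hnf4a of the liver and Twist2 of fibroblasts, 1 each, at 44.2 kb within, 3.517 kb from, 9.745 kb within and 1.659 kb from the gene. The leukocyte, endothelium and melanocyte lists had 0, but with only 1, 4 and 0 peaks of any kind, too few to limit the share. Over the 91 genes of these lists 4 of 27 peaks were isolated (14.8%, 5.92 to 32.5%), near the share of all peaks.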

How the data were processed

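The authors' deposited list of p63 peaks gives positions (chromosome, start, end) on mm10 and no score, summit or signal. Per the labels, it came from an irreproducible discovery rate step on the MK1 and MK2 p63 libraries (50 bp single-end reads). The submitters' processing notes name Bowtie 1.1.1 and SAMtools 1.1. For the peak caller and thresholds nothing was found: not given in the sources used here.

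Starts were made 1-based. Genes came from RefSeq (GRCm38.p6, the coordinates of mm10): 49603 rows, after leaving out 340 with scaffold positions (ending before 3 Mb, except on Y), 20560 protein-coding on chromosomes 1 to 19. Of these, 16457 had a start in the promoter table. Of 249 listed symbols, 247 matched. Shares have Wilson and medians order-statistic 95% intervals. No test was run, since there is 1 list without replicates. Counts of 0 are given with the limit that 3 counts allow, except for lists with too few peaks.

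The members, the 13 symbol lists and the 24 families were chosen with earlier results of these data known. Regions were named by rule: the 10 widest, the 10 most isolated, the 15 nearest to and the 5 farthest from a boundary, 3 on each side of the limit, those at listed genes, the 5 longest hosts, genes with 3 or more, and up to 6 family members in alphabetical order. Family members beyond 6, Gm14102, runs of isolated peaks, the microRNAs and the threshold of 16 consensus positions were chosen after values were seen. Tools were Python 3.11.15, numpy 2.4.6, pandas 2.3.3, scipy 1.17.1 and matplotlib 3.10.9. The sorting of peaks was tested on simulated data.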

Additional observations from a re-analysis of the deposited data

How the results depend on the processing

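Of 135 values recomputed for 20 results under 11 settings, 90 moved by less than the interval or the factor of 1.5 allowed, 44 moved by more and 1 turned. No paired analysis was possible because both p63 libraries stand in 1 list, and no replicate could be left out. At an isolation distance of 100 kb, 22.5% of peaks were isolated, 26.5% of them over 25 kb from a gene, and 10 epidermal list genes (6 as reported) had an isolated peak. At that distance 1 basal or junction gene was nearest to an isolated peak. At 250 kb, 721 peaks (8.69%) were isolated, 33.3% far from genes, with a median of 6 genes within 500 kb and 1 epidermal gene. With peaks at least as wide as the median alone, which leaves fewer neighbours, 27.1% were isolated, with a median width of 386 bp, a difference in median width from other peaks of -9 bp (-33 bp as reported), 24% far from genes, 9 genes within 500 kb and 4 cadherin genes. There the difference in share within 1 kb of a boundary, isolated minus other, was 0.175 percentage points in place of -0.577, the only change of sign. With all annotated genes, which adds boundaries, 14% were far from a gene and 11.4% within 1 kb of a boundary, with a median of 19 genes, 2 epidermal, 5 cadherin and 7 synaptic adhesion genes. A boundary window of 500 bp held 4.46% and of 5 kb 21.7%. Counting nearest genes within 100 kb only left 4 cadherin and 7 synaptic adhesion genes. Without a required C and G, the first scoring tried, 70.5% of promoter windows touched by an isolated peak had at least 16 positions. The requirement, used for the reported share, was chosen after that value was seen. Where no construction is named, the cause was not tested. Depth is unknown, so a lone peak may have neighbours below the calling threshold, and a peak missing near a gene does not show that p63 was absent there.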

Other observations

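Outside the chromosomes described above, 58 of 155 peaks on chromosome X (37.4%, Wilson 95% interval 30.2 to 45.3%) were isolated by the same distance, with a median width of 258.5 bp, and both peaks on chromosome Y were.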
